A study of Mus musculus with 6 samples.

Results

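Respiratory complex I was followed through 55 genes in natural killer (NK) cells from mouse liver, out of 55414 genes in the deposited table, 21884 of them protein-coding. The 55 are all protein-coding genes whose symbol starts with Nduf or mt-Nd. They comprise 40 nuclear genes named as subunits, 8 assembly factors (Ndufaf) and 7 subunits encoded by mitochondrial DNA (mt-Nd). The 40 nuclear names were sorted by known role, except that Ndufb11b was put in the membrane arm by its name alone. They hold 7 core subunits, 9 accessory subunits of the peripheral arm, 21 of the membrane arm and 1 found in both arms (Ndufab1). The other 2, Ndufa4 and Ndufa4l2, carry the name without being subunits of the complex. The cells came from wild-type (WT) mice that received phosphate-buffered saline (PBS, the control, 3 libraries) or metformin at 200 mg per kg (3 libraries), collected on day 3. Metformin is a glucose-lowering drug. No age, sex or strain is given in the sources used here, and neither is the way the NK cells were isolated. Whether each library stands for its own mouse is not in the labels, so the p-values cover only the spread over these 6 libraries, which may be technical.

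Complex I is the entry point of the mitochondrial respiratory chain. It takes electrons from NADH, passes them through a flavin and a chain of iron-sulphur clusters to ubiquinone, and pumps protons across the inner membrane. Its core subunits do the chemistry and the pumping, accessory subunits surround and stabilise them, and assembly factors help to build the enzyme but are not part of it. Part of the core is made inside mitochondria from mitochondrial DNA, so building it needs transcripts from both genomes. Metformin is known to inhibit this enzyme. Transcript levels do not measure enzyme activity, so the comparison addresses only how much of its transcripts the libraries held.

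The libraries held 22152167 to 30161214 estimated reads each. NK cell markers were high in all of them, with a summed level over 9 genes of 15450 to 16510 CPM (reads scaled to a common library size) in PBS and 15570 to 18380 CPM in metformin libraries. Markers of other cells were also present. The 9 T cell markers summed to 208 to 314 CPM in PBS and 420 to 598 CPM in metformin libraries. The 8 hepatocyte markers summed to 218 to 312 CPM in PBS libraries, 271 and 263 CPM in metformin 1 and 2, and 590.1 CPM in metformin 3. The 7 macrophage and monocyte markers gave 219.5 to 372 CPM against 276, 229 and 618 CPM, again with metformin 3 highest. The 4 B cell markers summed to 22.1 to 133 CPM and 61.9 to 189 CPM, and 5 erythroid markers to 61.9 to 145 CPM and 62.0 to 165 CPM. Neutrophil (4 genes), liver endothelial (4) and basophil or mast cell (3) markers stayed under 21 CPM in every library. No marker in these lists was at 0 in all libraries. In bulk RNA, fewer cells of a type and less RNA per cell cannot be told apart, and the part of these cells in the complex I values was not tested.

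Of the 55 genes, 53 had enough reads to be tested. Ndufa4l2, a relative of Ndufa4 known to be induced by low oxygen, and Ndufb11b, a gene named after Ndufb11, held 0 reads in all 6 libraries. The deposited TPM values, which divide reads by a length before scaling, allow levels to be compared between genes. The length they imply is the effective length (defined with the length results), which departs from the Gene Length column in some genes. By mean TPM over the 6 libraries mt-Nd1 stood first at 929.6 TPM, and then came Ndufa3 at 636, Ndufa4 at 602 and Ndufa1 at 566 TPM. The places of Ndufa3 and Ndufa1 rest on effective lengths of 0.089 of the median gene. Ndufa4 was first described with complex I and is now assigned to complex IV, cytochrome c oxidase. The 7 mitochondrially encoded subunits had a median of 218 TPM, the peripheral arm accessory subunits 200.1 TPM, the membrane arm accessory subunits 165 TPM and the nuclear core subunits 133 TPM. As a class the assembly factors were lowest, with a median of 25.6 TPM and a range from 11.5 TPM (Ndufaf6) to 67.8 TPM (Ndufaf8). The ranges of neighbours over the 6 libraries mostly overlapped. In 2 of 54 neighbouring pairs the lowest value of the higher gene exceeded the highest of the next. These were Ndufaf1 above Ndufaf2, and Ndufaf6 above Ndufa4l2, which held 0 reads. Overlapping ranges do not mean that the order changed between libraries: mt-Nd1 was above Ndufa3 in each of the 6.

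**Figure D1:**
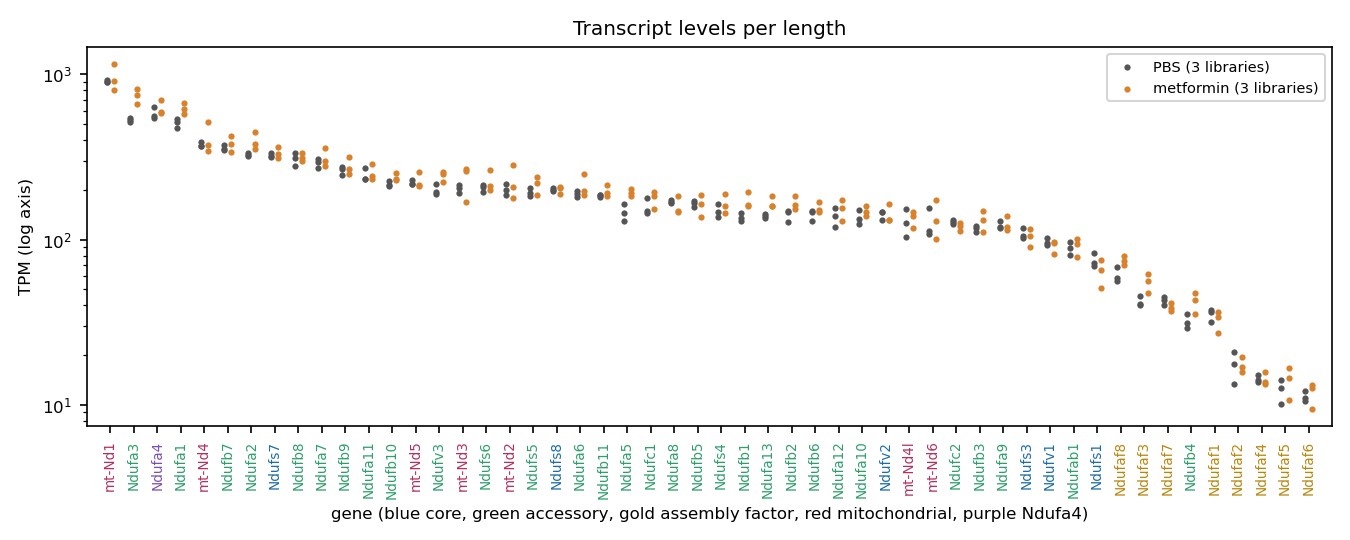
TPM (vertical, log axis) of 52 complex I genes with reads, ordered by mean level, with 1 point per library (grey for PBS, orange for metformin) and gene names coloured by class. mt-Nd1 lies at the top and the assembly factors gather at the low end, 11.5 to 67.8 TPM.

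With reads scaled to library size, complex I transcripts were higher in the metformin libraries, by a small amount and without a gene passing the test. The fitted log2 fold change was above 0 in 52 of 53 genes, and Ndufs1 alone was lower (-0.10). The median log2 fold change was 0.28 for the nuclear names, 0.25 for the assembly factors and 0.24 for the mitochondrially encoded subunits, beside 0.0053 for all 15527 genes tested. In edgeR's quasi-likelihood test 0 of 53 reached an adjusted p of 0.05, as did 0% of all genes, and the smallest adjusted p of the 53 was 0.21. At an unadjusted p of 0.05, 16 of 53 were higher and 0 lower, where 5.29% of all genes were higher and 5.08% lower. The groups were apart, every metformin library above every PBS library, in 23 of 53 genes, beside 9.49% of all genes, and the reverse held in 0 of 53, beside 9.63% of all genes. DESeq2 called 4 of them at an adjusted p of 0.05 (Ndufa3, Ndufa5, Ndufa13 and Ndufa1), all higher, where 0.947% of all genes were called higher and 1.93% in either direction (299 genes), and limma-voom called 0.

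One library weighs on this count. Metformin 3 was the highest of the 6 libraries in 51 of 53 complex I genes, beside 29.3% of all genes. Without it, 41 of 53 were above 0, 10 of 53 were higher at an unadjusted p of 0.05 and 0 lower (edgeR; 4.90% and 6.51% of all genes) and the median log2 fold change fell to 0.17 for nuclear names, 0.0998 for assembly factors and -0.025 for mitochondrially encoded subunits. Metformin 3 was also the library with the most hepatocyte and macrophage marker reads and with the highest share of reads from mitochondrial genes, 0.720% against 0.429% to 0.515% in the others.

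**Figure D2:**
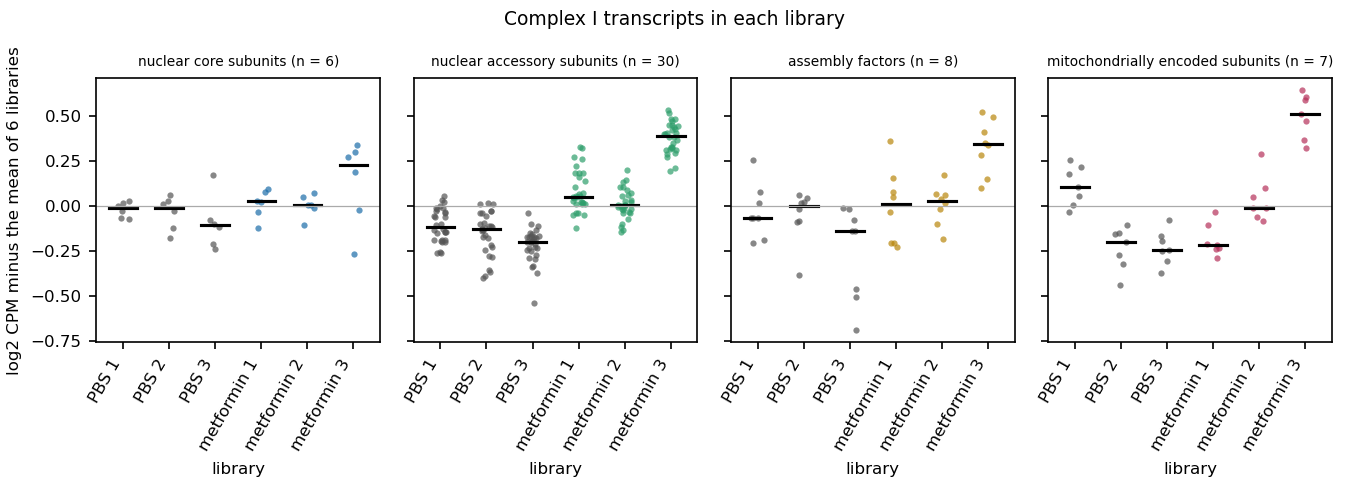
Log2 CPM of each gene minus its mean over the 6 libraries (vertical), by library (horizontal), for nuclear core subunits, nuclear accessory subunits, assembly factors and mitochondrially encoded subunits; each point is 1 gene and each bar the median, with 6 core subunits drawn. In metformin 3 the median was 0.39 for accessory and 0.51 for mitochondrially encoded subunits, while in metformin 1 the mitochondrially encoded subunits (median -0.22) lie among the PBS libraries.

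The nuclear accessory subunits carried most of the difference. All 30 tested were above 0, with a median log2 fold change of 0.33; 15 were higher at an unadjusted p of 0.05 and in 19 the groups were apart, beside 5.29% and 9.49% of all genes. Of these 30 genes 24 are short, with an effective length (defined with the length results) under 0.3 of the median gene. Among all genes that short, 11.9% to 20.5% were higher at that p and 19.9% to 28.2% had the groups apart, depending on the length bin. The peripheral arm accessory subunits had a median of 0.37 (5 of 9 with a p under 0.05) and those of the membrane arm 0.28 (10 of 20). The 7 nuclear core subunits had a median of 0.11, 0 with a p under 0.05, and 2 with the groups apart. No test of accessory against core subunits was made.

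Ndufa3, a small membrane arm subunit on chromosome 7 (3620372 to 3623326, plus strand, as the table gives it), had the smallest p of all 53. It was at 61.7, 57.7 and 58.6 CPM in PBS libraries 1 to 3 and at 92.9, 79.5 and 105.6 CPM in metformin libraries 1 to 3. All 3 metformin libraries lay above all 3 PBS libraries, and the log2 fold change was 0.64 ± 0.12 (SE), with an adjusted p of 0.21 in edgeR and 0.0011 in DESeq2. Ndufa5, a peripheral arm subunit on chromosome 6 (24518665 to 24528012, minus strand), was at 23.8, 25.5 and 19.6 CPM and at 35.7, 32.8 and 38.7 CPM. Its groups were apart as well (log2 fold change 0.64 ± 0.14, SE), with an adjusted p of 0.25 in edgeR and 0.011 in DESeq2. Ndufa1, an X-linked membrane arm subunit needed for assembly, was at 59.9, 50.7 and 57.9 CPM against 79.7, 69.1 and 89.0 CPM (log2 fold change 0.50 ± 0.12, SE). Ndufa13, also called GRIM-19, lies on chromosome 8 (70346830 to 70355208, minus strand) and was at 92.6, 84.1 and 87.3 CPM against 116.5, 107.6 and 135.9 CPM (0.45 ± 0.11, SE). In all 4 genes metformin 3 was highest and metformin 2 lowest of the treated libraries. Left without metformin 3, their log2 fold changes were 0.53, 0.57, 0.40 and 0.34, in that order, with unadjusted edgeR p-values of 0.00036, 0.0037, 0.0047 and 0.0020. The adjusted p-values of that edgeR fit were 0.074, 0.17, 0.19 and 0.15.

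The other 6 accessory subunits with the smallest p showed the same order of groups. Ndufa2, a peripheral arm subunit, was at 66.3, 64.0 and 62.7 CPM in PBS and 88.3, 75.7 and 105.7 CPM in metformin libraries. Ndufb1 of the membrane arm was at 24.5, 20.4 and 21.6 CPM against 29.9, 28.0 and 36.8 CPM. Ndufb10, which faces the intermembrane space, was at 66.0, 67.0 and 62.3 CPM against 81.7, 74.6 and 89.3 CPM. None of these groups overlapped, with log2 fold changes of 0.48, 0.51 and 0.33. Ndufv3, which sits near the NADH-binding tip, was at 45.0, 50.2 and 46.9 CPM against 64.8, 53.0 and 65.5 CPM. Ndufs5, a membrane arm subunit on the intermembrane face, was at 32.6, 32.0 and 34.6 CPM against 37.8, 41.4 and 48.9 CPM. Ndufb2 was at 27.7, 25.2 and 22.02 CPM against 32.4, 28.6 and 37.6 CPM. Here too every metformin library was above every PBS library, with log2 fold changes of 0.37, 0.37 and 0.40, and the closest libraries lay within 3 CPM of each other in Ndufv3 and 1 CPM in Ndufb2. Over the 10 genes the edgeR adjusted p ran from 0.21 to 0.44. The lowest log2 fold changes among accessory subunits were those of Ndufc2 (0.092) and Ndufa8 (0.098), and the groups overlapped in both. Ndufab1, the mitochondrial acyl carrier protein, which also serves fatty acid synthesis and iron-sulphur cluster assembly, was at 38.8, 38.8 and 35.3 CPM against 40.1, 36.5 and 49.2 CPM, with overlapping groups. Ndufa4 was at 119.2, 100.5 and 100.7 CPM against 125.7, 115.9 and 150.4 CPM, also overlapping (log2 fold change 0.29 ± 0.13, SE).

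Among the nuclear core subunits the groups overlapped in 5 of 7. Ndufs7, which holds the last iron-sulphur cluster before ubiquinone, was at 107.4, 95.0 and 92.8 CPM in PBS and 113.5, 107.9 and 132.3 CPM in metformin libraries. Ndufs8, another iron-sulphur protein next to it, was at 70.7, 68.1 and 70.3 CPM against 75.3, 76.5 and 84.4 CPM. Those 2 were the core subunits with the groups apart, beside 9.49% of all genes. Among all genes in their bin of effective length (0.2 to 0.3), 19.9% had the groups apart. Their log2 fold changes were 0.26 ± 0.11 and 0.18 ± 0.093 (SE), and 0.012 and -0.050 with an offset on effective length. Ndufs3, of the module that binds ubiquinone, had a log2 fold change of 0.11 ± 0.12 (SE). Ndufv1, which binds NADH and the flavin, and its partner Ndufv2 had 0.043 ± 0.093 and 0.14 ± 0.14 (SE). Ndufs1 carries several iron-sulphur clusters, has the longest effective length of the 53 and lies on chromosome 1 (63182755 to 63215992, minus strand). It was at 112.0, 108.3 and 124.4 CPM in PBS and 112.9, 116.3 and 92.0 CPM in metformin libraries. Its low value came from metformin 3, the library in which nearly all other complex I genes were highest.

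The assembly factors were above 0 in 8 of 8 genes, but 6 of 8 overlapped between groups, leaving 2 apart (9.49% of all genes), and 1 was higher at an unadjusted p under 0.05 (5.29% of all genes). That one was Ndufaf8, which stabilises Ndufaf5, at 13.5, 11.8 and 14.0 CPM in PBS and 17.2, 16.1 and 21.7 CPM in metformin libraries (log2 fold change 0.48 ± 0.17, SE; edgeR adjusted p = 0.43). Ndufaf3, which builds the ubiquinone-binding module together with Ndufaf4, was at 22.8, 24.8 and 23.9 CPM against 27.2, 26.9 and 33.3 CPM. These 2 had the groups apart. Ndufaf4 itself was at 17.5, 18.02 and 16.4 CPM against 14.8, 18.1 and 19.1 CPM, a log2 fold change of 0.0024 ± 0.15 (SE) whose sign depended on the scaling. Ndufaf5, which modifies Ndufs7, was at 8.10, 8.74 and 6.17 CPM against 7.35, 9.55 and 12.2 CPM. Ndufaf6 was at 4.49, 4.31 and 2.64 CPM against 5.47, 3.75 and 5.65 CPM, and the late-acting Ndufaf2 at 5.71, 4.51 and 3.36 CPM against 5.03, 4.46 and 6.09 CPM. At these low levels the standard errors, 0.25, 0.31 and 0.28, were close to or above the fold changes of 0.34, 0.38 and 0.20. Ndufaf1, which works on the membrane arm, and Ndufaf7, a methyltransferase, had log2 fold changes of 0.078 ± 0.14 and 0.033 ± 0.10 (SE).

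Other genes known to act in complex I assembly and maturation, outside the Ndufaf names, had a smaller median. Of 13 found of a list of 14, 1 was higher and 0 lower at an unadjusted p of 0.05 (5.29% and 5.08% of all genes). The median log2 fold change was 0.13, and 0.048 without metformin 3, 0.053 with an offset on Gene Length and 0.015 with one on effective length. The one was Dmac1, a membrane arm assembly factor, at 29.5, 25.7 and 26.4 CPM against 33.0, 32.3 and 41.5 CPM (log2 fold change 0.39 ± 0.14, SE; edgeR adjusted p = 0.43). With those offsets Dmac1 was at 0.099 and 0.13.

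The 7 mitochondrially encoded subunits were all above 0 in log2 fold change, yet their groups overlapped in all 7 and none had an unadjusted p under 0.05. Their summed level was 945, 806 and 789.6 CPM in PBS libraries 1 to 3 and 783, 881 and 1280.0 CPM in metformin libraries 1 to 3. Metformin 1 was thus the lowest and metformin 3 the highest of the 6. The log2 ratio of the group means was 0.21, and -0.026 without metformin 3. mt-Nd1, a membrane arm subunit at the ubiquinone site, was at 368, 319 and 309 CPM against 304, 352 and 504 CPM. mt-Nd4 was at 231, 193.0 and 182 CPM against 183, 206 and 324 CPM, and mt-Nd5 at 210.2, 194 and 198 CPM against 194, 198 and 270.3 CPM. Both are proton-pumping subunits, as is mt-Nd2, which was at 83.5, 61.1 and 62.0 CPM against 60.4, 73.1 and 115.1 CPM. In these 4 genes metformin 1 was below the lowest PBS library or within 1 CPM of it. mt-Nd6, the only member made from the other strand of the mitochondrial genome, was at 26.3, 17.6 and 17.0 CPM against 19.1, 22.8 and 33.6 CPM. mt-Nd3 was at 17.1, 15.2 and 14.1 CPM against 14.9, 21.4 and 24.3 CPM, the largest log2 fold change of the 7 (0.38 ± 0.20, SE). mt-Nd4l was at 8.80, 5.58 and 6.76 CPM against 7.40, 8.14 and 9.46 CPM.

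Relative to the nuclear transcripts, the mitochondrial ones showed no separate shift that exceeded the spread. The summed TPM of the 7 mitochondrially encoded genes over that of the nuclear subunit names was 0.289, 0.267 and 0.277 in PBS and 0.234, 0.273 and 0.294 in metformin libraries. The means were 0.278 ± 0.011 and 0.267 ± 0.030 (SD, n = 3), and the groups overlapped. The groups also overlapped in the 6 mitochondrial genes of other respiratory complexes, which had a median log2 fold change of 0.19 (1 higher at an unadjusted p of 0.05, beside 5.29% of all genes). That median was -0.022 without metformin 3, -0.076 with an offset on Gene Length and -0.068 with one on effective length. Those genes summed to 2846 to 3336 CPM in PBS and 2870.0, 3102 and 4335 CPM in metformin libraries.

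Complex I transcripts are short, and short genes as a whole had a median log2 fold change above 0. The median Gene Length of the 53 in the deposited table was 1082 bases, against 2997 for all genes tested. A second measure, the effective length, is what the authors' count divided by their TPM implies, averaged over libraries and given here as a multiple of the median gene. It was 0.25 for the 53 genes, 0.19 for the accessory subunits, 0.43 for the nuclear core subunits, 0.45 for the assembly factors, 0.27 for the mitochondrially encoded subunits and 1.04 for all genes tested. Among all genes, the median log2 fold change was 0.68 where the effective length was under 0.1, 0.36 at 0.1 to 0.2, 0.24 at 0.2 to 0.3, 0.18 at 0.3 to 0.4, 0.12 at 0.4 to 0.6, 0.037 at 0.6 to 1 and -0.099 above 1. For the complex I genes in the same bins the medians were 0.38 (5 genes), 0.37 (16), 0.25 (14), 0.13 (4), 0.24 (7), 0.074 (6) and -0.10 (1). Each gene was also set against the median of its own bin. The 53 genes then split into 27 above and 26 at or below it, with a median difference of 0.0064, and the 46 nuclear genes into 24 above and 22 at or below. The genes farthest above were Ndufa13 (0.33) and Ndufa5 (0.28), and those farthest below mt-Nd4l (-0.44) and Ndufc1 (-0.40). Without metformin 3 the trend over all genes was flatter, at 0.65, 0.22, 0.090, 0.067, 0.018, -0.017 and -0.040 from the shortest bin to the longest. Libraries of a group differed in it. For genes under 0.1, the median log2 CPM minus the gene mean was 0.22, -0.54 and -0.54 in PBS libraries 1 to 3. In metformin libraries 1 to 3 it was 0.63, 0.095 and 0.31. PBS 1 was thus above metformin 2, as it was at 0.2 to 0.3 (0.013 against -0.019). At 0.1 to 0.2 every metformin library was above every PBS library, the closest at 0.018 and 0.014.

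**Figure D3:**
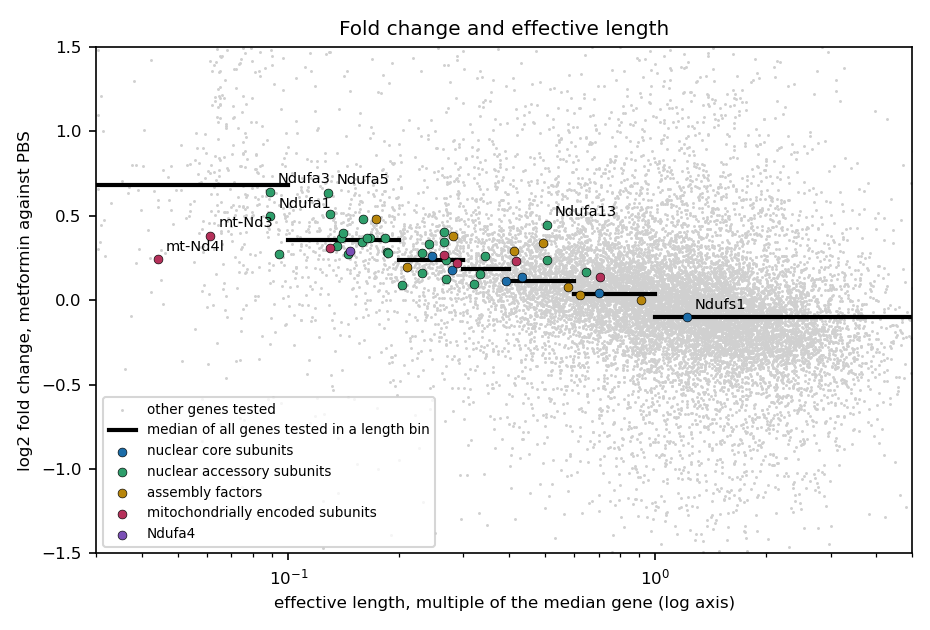
Log2 fold change, metformin against PBS (vertical), against effective length as a multiple of the median gene (horizontal, log axis), for all genes tested (grey) and complex I genes (coloured by class); black bars are medians of all genes in a length bin, and genes outside the axes are not drawn. Above an effective length of 0.1, complex I genes lie on both sides of the bars, with Ndufa13 (0.45) above its bin and Ndufs1 (-0.10) at the long end. The 5 genes under 0.1 all lie below their bar, differing from it by -0.44 (mt-Nd4l) to -0.037 (Ndufa3, at 0.64).

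Taking length into account moved most of these values towards 0. A smooth trend against length was fitted in each library over all genes and used as an offset in the same edgeR model. By its construction, that offset takes out any difference that genes of one length share. With Gene Length as the scale, the median log2 fold change was 0.062 for nuclear names, 0.15 for assembly factors and -0.0048 for mitochondrially encoded subunits, and 7 of 53 were higher at an unadjusted p of 0.05 and 0 lower (4.32% and 4.64% of all genes). With effective length as the scale the medians were -0.014, 0.062 and -0.018, 22 of 53 genes were above 0, and 1 of 53 was higher at an unadjusted p of 0.05 and 0 lower (4.30% and 5.07% of all genes). The median of the accessory subunits against that of the core subunits was -0.0065 against -0.019 in that fit, but 0.11 against -0.015 with the Gene Length offset. The one gene was Ndufa13, at a log2 fold change of 0.33 with an edgeR adjusted p of 0.20. Ndufa3 went from 0.64 to 0.37 with the Gene Length offset and to -0.0038 with the effective length offset, and Ndufa5 from 0.64 to 0.40 and 0.16. Ndufa1, the shortest nuclear member by Gene Length (419 bases), went from 0.50 to -0.14 in both.

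Both length scales diverge for some genes. The table gives Ndufb7 4435 bases and Ndufb2 4371 bases, which makes them long, while their effective lengths of 0.19 and 0.14 make them short. Their log2 fold changes were 0.28 and 0.40 without correction, 0.39 and 0.50 with the Gene Length offset, and -0.033 and -0.031 with the effective length offset. The sources used here do not say how the Gene Length column was derived.

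Corrections that use each gene's own length in each library, without the trend over genes, left more of the difference in nuclear names and mitochondrially encoded subunits. The assembly factor medians did not exceed the 0.15 of the Gene Length offset. With the effective length of each gene in each library as the offset, the medians were 0.22 for nuclear names, 0.14 for assembly factors and 0.21 for mitochondrially encoded subunits, and 10 of 53 genes were higher at an unadjusted p of 0.05 and 0 lower (edgeR; 4.39% and 4.77% of all genes). On the log2(TPM + 1) scale, where the median of all genes was -0.085, limma gave medians of 0.11, 0.040 and 0.086, with 10 of 53 genes higher and 0 lower at an unadjusted p of 0.05 (3.21% and 7.72% of all genes). Accessory and core subunits had medians of 0.24 and 0.10 with effective lengths per library and of 0.13 and -0.0022 on TPM. Ndufa3, for example, was at 546, 514 and 531 TPM in PBS and at 749.5, 662 and 815 TPM in metformin libraries, and its groups stayed apart.

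**Figure D4:**
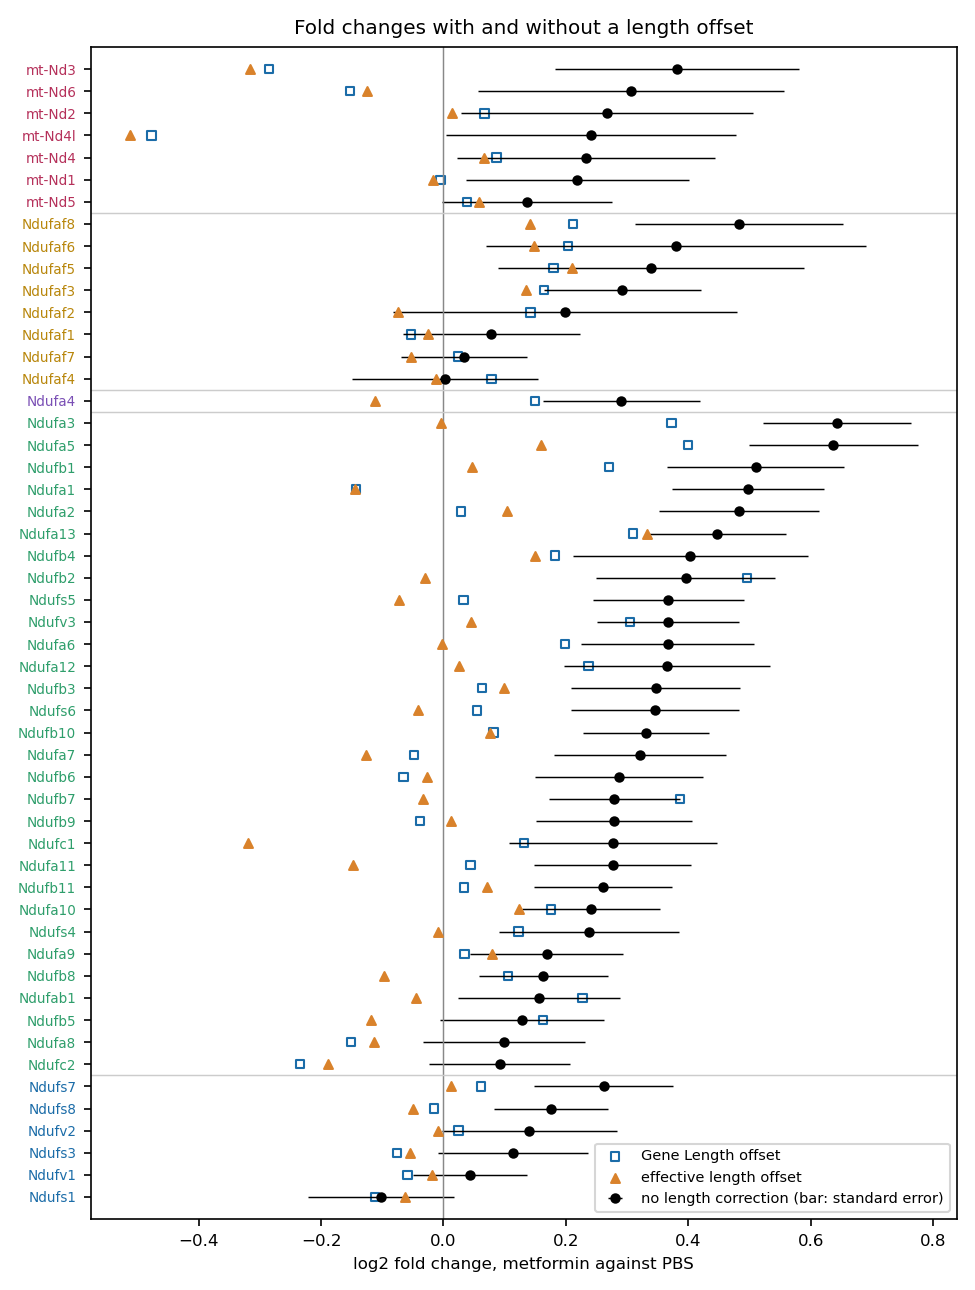
Log2 fold change, metformin against PBS (horizontal), of 52 tested genes (vertical, by class, names coloured) without length correction (black, bar: standard error), with the Gene Length offset (open square) and with the effective length offset (triangle). Uncorrected points lie right of 0 for all but Ndufs1, while the triangles of 31 of the 52 lie left of it and only that of Ndufa13 (0.33) exceeds 0.25.

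The shortest member shows how little room a short transcript leaves. mt-Nd4l has 297 bases and overlaps the start of mt-Nd4 on the same strand. It lies at chrM:9877-10173, and mt-Nd4 starts at chrM:10167, positions at which the table and the GENCODE M21 annotation (GRCm38) are the same. Both sequences, from the GENCODE M21 transcripts, are printed 5′ to 3′ with the 7 shared bases in capitals, the whole of mt-Nd4l and the first 60 bases of mt-Nd4.
mt-Nd4l: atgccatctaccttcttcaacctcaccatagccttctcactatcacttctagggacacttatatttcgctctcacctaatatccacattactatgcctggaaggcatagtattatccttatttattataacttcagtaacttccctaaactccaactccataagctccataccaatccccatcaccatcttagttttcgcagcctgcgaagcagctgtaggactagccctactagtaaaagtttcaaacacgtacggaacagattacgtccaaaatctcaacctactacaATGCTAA
mt-Nd4: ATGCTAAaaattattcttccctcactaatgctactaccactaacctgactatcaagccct
The effective length of mt-Nd4l was 5.95%, 6.02% and 6.24% of that of mt-Nd5 in PBS libraries 1 to 3 and 6.83%, 6.32% and 6.17% in metformin libraries 1 to 3. For mt-Nd3, of 348 bases, the values were 8.25%, 8.27% and 8.62% against 9.62%, 8.84% and 8.58%. Metformin 1 had the largest share in both, so there the same read count stands for a lower TPM relative to that of mt-Nd5. With the Gene Length offset mt-Nd4l went from 0.24 to -0.48 and mt-Nd3 from 0.38 to -0.29. Counts more than 0.005 reads from a whole number occurred in 5 of the 7 mitochondrial and 16 of the 48 nuclear members, mt-Nd4l and mt-Nd4 in all 6 libraries. The sources used here do not say how the authors assigned reads shared between genes, so values of overlapping members are uncertain to that extent.

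Copies elsewhere in the genome add the same uncertainty. The processed pseudogene Ndufb4c held more reads than Ndufb4 itself in every library: Ndufb4 had 38.7% to 46.4% of the reads of the pair. Ndufb4 was at 11.2, 11.7 and 10.8 CPM in PBS and 13.0, 13.1 and 18.6 CPM in metformin libraries, and Ndufb4c at 14.6, 13.5 and 14.1 CPM against 20.5, 16.3 and 22.5 CPM. The log2 fold change was 0.40 for Ndufb4 and 0.49 for Ndufb4c, and the log2 ratio of the summed pair was 0.45. The sum includes the reads of Ndufb4c, so it cannot show how Ndufb4 would move under another assignment of shared reads. Ndufa12-ps (77.6 to 149 reads), Ndufab1-ps (57.4 to 103 reads) and Ndufs5-ps (11.4 to 36.7 reads) held fewer reads.

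The promoters of the nuclear members were searched for letters that known regulators of respiratory genes bind. Nuclear respiratory factor 1 (NRF-1) is a transcription factor known for driving nuclear genes of the respiratory chain. RefSeq promoter windows (GRCm38.p6, 250 bases before to 50 after the start) were found for 41 of 48 nuclear members, 43 windows in all. The NRF-1 core, GCGCA and GCGC with any 1 base between them on either strand, occurred in 10 of 43 windows (23.3%), against 4.60% of all 32851 windows and 9.20% of the 13718 windows of genes tested here. The GC box, GGGCGG, was in 51.2% of the members' windows and 59.1% of those of tested genes. CCAAT was in 32.6% and 37.8%, the ETS site CCGGAAG in 14.0% and 16.7%, the cyclic AMP response element TGACGTCA in 6.98% and 2.81%, and TATAAA in 11.6% and 7.91%. All were searched on both strands, and none of these motifs contains another. A match describes letters only. Upstream stretches of 3 members are printed to show the core in genes of different classes and fold changes, in capitals, 5′ to 3′ on the gene's strand.
Ndufa11: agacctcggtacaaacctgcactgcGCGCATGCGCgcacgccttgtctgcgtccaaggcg
Ndufs5: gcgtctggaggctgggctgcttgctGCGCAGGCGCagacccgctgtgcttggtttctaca
Ndufaf4: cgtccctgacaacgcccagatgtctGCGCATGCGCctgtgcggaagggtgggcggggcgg
They lie at chr17:56717677-56717736 (plus strand), chr4:123718250-123718309 (minus strand) and chr4:24897945-24898004 (plus strand), all upstream of the start. These 3 genes had log2 fold changes of 0.28, 0.37 and 0.0024. Over all tested members with a window, the 9 with the core had a median log2 fold change of 0.35 (0.0024 to 0.64) and the 32 without it 0.27 (0.033 to 0.64), ranges that lie almost wholly within each other.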

How the data were processed

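Liver NK cell RNA was sequenced in 6 libraries (3 PBS, 3 metformin). Per the labels' protocols, total RNA was column-purified and turned into SMART-seq mRNA libraries, a method that amplifies full-length polyadenylated RNA. The submitters' processing notes name DRAGEN (version not given in the sources used here) and 2 builds, GRCm39 and mm10. The build of the deposited positions is not named: 3 of 48 nuclear members had the same position in GENCODE M21 (GRCm38). The authors deposited, for each gene and library, an estimated count with no normalization and a TPM value, which divides by length and keeps no depth. Use of strand and the treatment of shared reads were not given.

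Estimated counts, 22152167 to 30161214 per library, were rounded and entered into edgeR 4.0.16 (R 4.3.3) for its quasi-likelihood test, with TMM scaling and no covariate, on the 15527 genes that filterByExpr kept, with a threshold of 0.05 after Benjamini and Hochberg. The common biological coefficient of variation was 27.3%. CPM use TMM-scaled library sizes. DESeq2 1.42.0, limma-voom and limma 3.58.1 on log2(TPM + 1) were alternatives, beside other scalings and filters, loess length offsets (span 0.3), a replicate block and each library left out. The scripts were tested on simulated counts. The effective length settings and 2 settings without metformin 3 were added after the data were seen. No replicate pair of libraries agreed within sampling noise (14.8 to 63.9 chi-square units per degree of freedom).

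The members, the lists and the motifs were chosen with earlier results of these data known. Genes named are all mt-Nd and Ndufaf genes, the core subunits (1 is counted but not reported here by name), the 10 accessory subunits with the smallest p, members that failed the filter, members whose sign changed with the Gene Length offset, and Ndufa4, Ndufa4l2 and Ndufab1. Other names were chosen after their values were seen.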

Additional observations from a re-analysis of the deposited data

How the results depend on the processing

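The count of all genes called at an adjusted p of 0.05, 0 in edgeR (821 higher and 789 lower at an unadjusted p of 0.05), was 299 with DESeq2, 1 without a filter, 1 with either length offset, 3 with the replicate block, 6 with the block and the Gene Length offset, 1 with the Gene Length offset and 2 with limma on TPM where metformin 3 was also left out, and 0 to 1 when each library was left out in turn. Of the complex I genes 4 were called by DESeq2 and 0 elsewhere. The count of 16 at an unadjusted p of 0.05 became 7 with the Gene Length offset, 6 with the block as well, 1 with the effective length offset, 10 with effective lengths per library, 10 with limma on TPM, 5 and 8 with the Gene Length offset and TPM without metformin 3, and 9 to 24 leaving out 1 library (9 without PBS 2, 9 without PBS 3, 10 without metformin 3).

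The nuclear median of 0.28 was 0.062 with the Gene Length offset, 0.063 with the block as well, -0.014 with the effective length offset, 0.11 on TPM, 0.053 and 0.017 with the Gene Length offset and TPM without metformin 3, and 0.17 to 0.35 leaving out 1 library. The assembly factor median of 0.25 was 0.062 with the effective length offset, 0.040 on TPM, 0.078 and 0.0029 with the Gene Length offset and TPM without metformin 3, and 0.0998 to 0.32 leaving out 1 library. The mitochondrial median of 0.24 was -0.12 and -0.060 with the Gene Length offset and TPM without metformin 3, and -0.025 to 0.42 leaving out 1 library. Over RLE, upper quartile and library size scaling, the other filters, protein-coding genes only, DESeq2 and limma-voom these medians ran from 0.26 to 0.33, 0.22 to 0.30 and 0.225 to 0.29. The replicate block alone gave 0.27, 0.25 and 0.23, 12 complex I genes at an unadjusted p of 0.05 and 0 called. Same-numbered libraries correlated at 0.17, 0.076 and 0.17 in their deviations from the group means. Differently numbered ones ran from -0.24 to 0.076. Each metformin library was closest to the PBS library of its number, though PBS 2 was as close to metformin 1 (0.076). The labels do not say that equal numbers mark pairs, so the replicate block was kept as an alternative only. The causes were not tested.

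Log2 fold changes that turned negative with the Gene Length offset were those of Ndufa8 (-0.15), Ndufs3 (-0.076), Ndufaf1 (-0.053), Ndufb6 (-0.066), Ndufc2 (-0.23), Ndufb9 (-0.039), Ndufa7 (-0.049), Ndufs8 (-0.015), Ndufv1 (-0.059), Ndufa1 (-0.14), mt-Nd1 (-0.0048), mt-Nd3 (-0.29), mt-Nd4l (-0.48), mt-Nd6 (-0.15), mt-Co2 (-0.021) and mt-Atp8 (-0.52). With the replicate block added, those genes were at -0.15, -0.073, -0.056, -0.058, -0.23, -0.035, -0.050, -0.016, -0.063, -0.14, -0.016, -0.36, -0.53, -0.21, -0.026 and -0.66, in that order. With the effective length offset, 30 complex I genes turned, among them Ndufa8 (-0.11), Ndufs3 (-0.054), Ndufaf1 (-0.025), Ndufaf4 (-0.011), Ndufb6 (-0.027), Ndufs5 (-0.073), Ndufa4 (-0.11), Ndufb2 (-0.031), Ndufa3 (-0.0038), Ndufc2 (-0.19), Ndufab1 (-0.045), Ndufaf2 (-0.074), Ndufa7 (-0.13), Ndufv2 (-0.0085), Ndufaf7 (-0.053), Ndufs8 (-0.050), Ndufv1 (-0.019), Ndufa1 (-0.14), mt-Nd1 (-0.018), mt-Nd3 (-0.32), mt-Nd4l (-0.51), mt-Nd6 (-0.12), Ndufb7 (-0.033), Ndufc1 (-0.32) and Ndufa11 (-0.15), and so did Lyrm2 (-0.12), mt-Co2 (-0.0098) and mt-Atp8 (-0.48). On TPM, Ndufa8 (-0.088), Ndufs3 (-0.070), Ndufaf1 (-0.11), Ndufc2 (-0.093), Ndufaf7 (-0.13), Ndufs8 (-0.0022) and Ndufv1 (-0.091) turned. Ndufaf4, at 0.0024, was -0.0032 with DESeq2, -0.00348 with RLE factors, -0.00101 with limma-voom, -0.014 without a filter and -0.0049 with the block. Ndufaf7 was -0.036 with effective lengths per library. Leaving out 1 library at a time gave ranges with a negative end, reached without metformin 3, for Ndufa8 (-0.056 to 0.19), Ndufs3 (-0.011 to 0.19), Ndufaf1 (-0.063 to 0.18), Ndufaf4 (-0.082 to 0.099), Ndufv2 (-0.015 to 0.22), Ndufaf7 (-0.016 to 0.052), mt-Nd1 (-0.025 to 0.36), mt-Nd2 (-0.051 to 0.44), mt-Nd4 (-0.062 to 0.39) and mt-Nd5 (-0.042 to 0.21). Ndufv1 ranged from -0.00048 (without metformin 1) to 0.084.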

Other observations

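Genes of mitochondrial transcription and biogenesis were counted in the same way. Of 16, 1 was higher and 1 lower at an unadjusted p of 0.05, close to the 5.29% and 5.08% of all genes. The groups were apart with metformin higher in 1 and lower in 2 of the 16, beside 9.49% and 9.63% of all genes. The median log2 fold change of the 16 was -0.060, and -0.013 without metformin 3. Slirp, which stabilises mitochondrial messenger RNA, was at 18.9, 21.3 and 17.6 CPM in PBS and 22.9, 24.6 and 29.9 CPM in metformin libraries. Pprc1, a coactivator that works with NRF-1, was at 45.3, 59.1 and 57.8 CPM against 41.0, 43.8 and 24.9 CPM, with the lowest value in metformin 3. Their log2 fold changes were 0.42 and -0.56, with edgeR adjusted p-values of 0.43 and 0.45, and 0.29 and -0.36 without metformin 3. With the effective length offset these log2 fold changes were 0.19 and -0.42. Tfam, which packages and transcribes mitochondrial DNA, was at 42.1, 42.1 and 43.8 CPM against 41.2, 39.3 and 45.5 CPM, and its groups overlapped. Nrf1, which encodes NRF-1, was at 111.1, 116.3 and 114.4 CPM against 108.5, 98.6 and 90.5 CPM, with the groups apart. Its log2 fold change was -0.20 (edgeR adjusted p = 0.52), -0.14 without metformin 3 and -0.18 with the effective length offset.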
